A study of Caenorhabditis elegans with 2 samples.

Results

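Peaks of TBX-2 chromatin immunoprecipitation at the genes of small nucleolar RNAs (snoRNAs) and small nuclear RNAs (snRNAs) numbered 218 of the 25727 peaks that the pooled list holds on the nuclear chromosomes of Caenorhabditis elegans. A peak was taken when its summit, the base with the highest signal in the peak, lay within 250 bp of a gene annotated as snoRNA or snRNA and no tRNA gene lay within 500 bp. The genes nearest to these summits were snoRNA genes for 171 peaks and snRNA genes for 47 peaks, and 189 different RNA genes were involved. The rule used position only and no signal.

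Immunoprecipitated DNA was sequenced from whole late embryos of hermaphrodites, taken 3.5 h after synchronization by egg bleaching. The strain, OP159, has the genotype unc-119(ed3) III; wgIs159 and expresses TBX-2 from the integrated transgene wgIs159, with GFP and FLAG at the C-terminus; both libraries share this genotype, and the antibody was against GFP. The submitters made 2 biological replicates and deposited a relaxed peak list of each, a relaxed list of the pooled data, and an optimal set of 3053 peaks thresholded on the irreproducible discovery rate. Of the optimal peaks, 3034 were nuclear. Signal is the value the submitters' caller gave each peak, and because the lists scale it differently it was used for ranks within a list. Read depth is unknown, all cells of the embryo were mixed, and no list from animals without the tagged protein was analysed here.

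snoRNAs guide the chemical modification of ribosomal RNA, and snRNAs form the core of the splicing machinery, to which nematodes add the spliced leader RNAs that are joined to the front of many messenger RNAs. In animals snRNA genes are driven by a proximal sequence element upstream of the start, whereas tRNA genes are driven from an A box and a B box inside the gene. These boxes are bound by the factor TFIIIC, and tRNA genes are transcribed by RNA polymerase III. Many snoRNA genes of C. elegans lie in introns of protein-coding genes. TBX-2 belongs to the T-box family of DNA-binding regulators and is best known from the anterior muscles of the worm's pharynx.

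Of the RNA genes nearest to the 20 strongest peaks, 8 had a tRNA-like word pair just upstream, 3 had another word pair and 9 had neither, and examples of each are shown first because later results refer to them. A pair of words like those of tRNA genes was defined as TGG, any 3 bases, A, 2 or 3 further bases and GG, followed 30 to 70 bases on, start to start, by GTTC. It was sought on the strand of the RNA gene, from 120 bases before its 5′ end to 15 bases after it. This definition was written after sequences at these peaks had been read, so its frequency among them is a description. The following snoRNA genes with optimal peaks carry it. Each line holds the 90 bases before the annotated 5′ end and the first 10 bases of the gene, on the strand of the gene in ce11 (RefSeq sequence of WBcel235), with the letters of both words in capitals.
W03C9.9 (snoRNA, chrII:11960808-11960907, plus strand): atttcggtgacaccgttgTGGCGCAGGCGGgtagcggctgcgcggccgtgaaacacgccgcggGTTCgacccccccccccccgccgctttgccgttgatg
T03F7.8 (snoRNA, chrV:11314168-11314267, plus strand): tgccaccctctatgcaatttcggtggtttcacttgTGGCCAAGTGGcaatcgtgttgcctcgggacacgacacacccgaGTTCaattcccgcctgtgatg
Y43F8C.22 (snoRNA, chrV:19643178-19643277, minus strand): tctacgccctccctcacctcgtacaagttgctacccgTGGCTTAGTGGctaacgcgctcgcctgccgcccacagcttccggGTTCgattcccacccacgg
T06C12.16 (snoRNA, chrV:15873917-15874016, minus strand): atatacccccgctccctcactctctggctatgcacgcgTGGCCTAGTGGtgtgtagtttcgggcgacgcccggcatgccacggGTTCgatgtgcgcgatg
C27H5.9 (snoRNA, chrII:7184069-7184168, minus strand): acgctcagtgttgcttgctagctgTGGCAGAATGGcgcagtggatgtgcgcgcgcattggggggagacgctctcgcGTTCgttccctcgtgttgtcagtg
F55A11.10 (snoRNA, chrV:11782902-11783001, plus strand): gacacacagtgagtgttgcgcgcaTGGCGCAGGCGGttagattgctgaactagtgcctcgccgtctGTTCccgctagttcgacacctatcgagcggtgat

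Another pair, ACCC and TGTC with 6 bases between them, was read upstream of several snRNA genes and is called the snRNA-type pair. It was defined in the same way, after the sequences had been seen. Both snoRNA and snRNA genes with optimal peaks carry it, as these lines show, with the letters of both words in capitals.
ZK994.7 (snoRNA, chrV:8500489-8500588, plus strand): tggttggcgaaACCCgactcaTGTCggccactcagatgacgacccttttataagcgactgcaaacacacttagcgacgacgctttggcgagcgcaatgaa
W05B2.8 (snRNA, chrIII:10989589-10989688, plus strand): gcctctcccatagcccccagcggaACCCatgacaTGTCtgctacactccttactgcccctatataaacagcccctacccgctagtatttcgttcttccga
sup-6 (snRNA, chrII:12944958-12945057, minus strand): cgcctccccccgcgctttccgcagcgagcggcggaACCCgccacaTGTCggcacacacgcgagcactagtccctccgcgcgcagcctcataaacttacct
F54D8.7 (snRNA, chrIII:5080889-5080988, minus strand): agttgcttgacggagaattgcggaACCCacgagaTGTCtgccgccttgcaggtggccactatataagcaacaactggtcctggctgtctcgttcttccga

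Some of the strongest peaks lay at genes with neither pair in that stretch, among them spliced leader genes. These lines have no capitals because neither pair was found there. The absence says only that these letters were not in the window.
sls-2.1 (snRNA, chrII:5844775-5844874, plus strand): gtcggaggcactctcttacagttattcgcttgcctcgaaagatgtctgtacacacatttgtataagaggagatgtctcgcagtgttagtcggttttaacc
sls-2.2 (snRNA, chrII:5543508-5543607, plus strand): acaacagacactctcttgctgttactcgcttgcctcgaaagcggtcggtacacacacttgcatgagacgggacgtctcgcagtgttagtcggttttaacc
ZK20.9 (snoRNA, chrII:11635135-11635234, plus strand): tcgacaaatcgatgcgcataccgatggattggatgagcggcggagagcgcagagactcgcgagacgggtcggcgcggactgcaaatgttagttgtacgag

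As a set, the peaks at snoRNA and snRNA genes were stronger than nuclear peaks elsewhere, but they were mixed. The 119 outside the optimal set had a median signal of 37.8. Of the 218 peaks, 99 were in the optimal set, which is 45.4% (95% exact interval 38.7 to 52.3), whereas 11.8% of all nuclear pooled peaks were. Among the 25509 nuclear peaks elsewhere the share was 11.5%. The intervals of such shares cover counting error over peaks only, and peaks are not independent replicates. The share was 46.8% for the 171 peaks at snoRNA genes (39.1 to 54.6) and 40.4% for the 47 at snRNA genes (26.4 to 55.7), and these intervals overlap. The optimal set holds the strongest rows of the pooled list, so this share and the ranks that follow are readings of the same signal. The median signal was 70.5 at snoRNA and snRNA genes and 34.7 over all nuclear peaks. The median rank percentile, where 100 is the strongest peak, was 85.2 and 49.97 for the same sets. When the list was divided by rank into 10 equal parts, the strongest part held 93 of the 218 peaks (42.7%) and the weakest held 5. The top 500 of the list held 43 of these peaks.

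**Figure D1:**
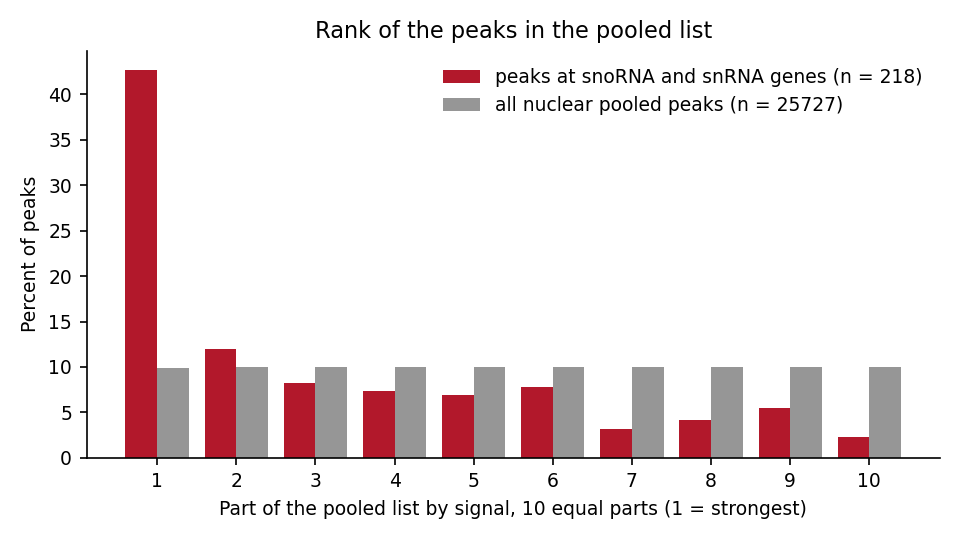
Percent of peaks in each of 10 equal parts of the pooled list by signal, for the 218 peaks at snoRNA and snRNA genes and for all 25727 nuclear pooled peaks. The strongest part holds 42.7% of the peaks at snoRNA and snRNA genes and 9.94% of all nuclear peaks.

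In both replicates strong rows overlapped a larger share of these peaks than of all nuclear peaks. Of the 218 peaks, 116 overlapped one of the 3053 strongest rows of replicate 1 and 117 did in replicate 2, a share of 53.4% ± 0.324 (SD, n = 2), and 103 did so in both. Over all nuclear pooled peaks the share was 14.9% ± 0.0605 (SD, n = 2). An overlap of 1 bp was enough, so a weak peak beside a strong one could count through its neighbour's row. Of the 119 peaks outside the optimal set 24 counted in replicate 1 and 23 in replicate 2, and of the 99 optimal ones 92 and 94 did. All 99 optimal peaks at these genes were found in both relaxed replicate lists. Nearly all of the 3034 nuclear optimal peaks were too, 3034 in replicate 1 and 3030 in replicate 2. The share found in a replicate list was 89.4% ± 2.59 (SD, n = 2) for the 218 peaks. It was 75.2% ± 5.53 (SD, n = 2) for all nuclear pooled peaks. Of the 218, 176 were found in both, and 4 in neither: those at R144.18, Y76G2B.1, T21F2.3 and Y65B4A.10, with pooled signals from 23.4 to 28.4, close to the lowest signal of the pooled list, 22.3.

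**Figure D2:**
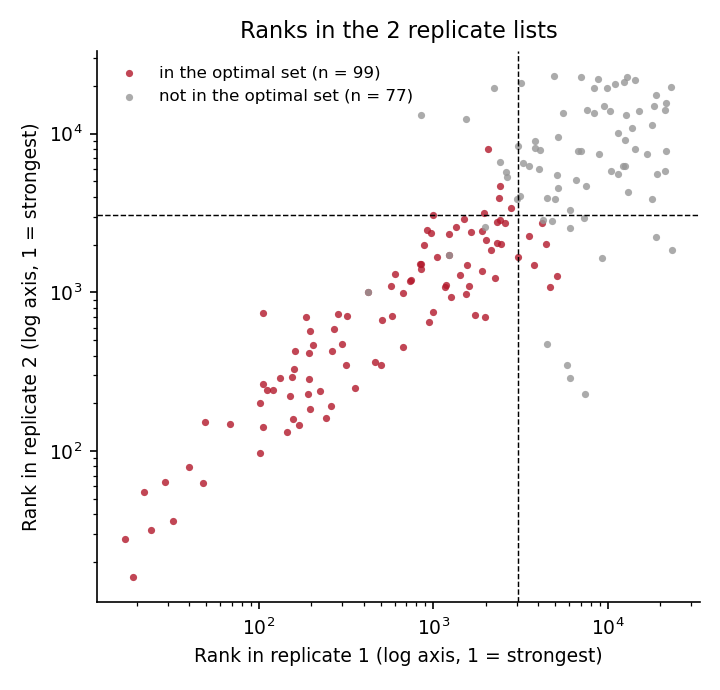
Rank of each peak at a snoRNA or snRNA gene in the list of replicate 1 and of replicate 2, on log axes with 1 as the strongest, using the overlapping row with the nearest summit. Points are the 176 peaks found in both lists, 99 of them in the optimal set, and dashed lines mark rank 3053. Most optimal peaks lie below both lines.

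The strongest of these peaks reached the top of the whole pooled list. The peak at the snoRNA gene W03C9.9 on chromosome II (11960646 to 11961013, ce11) had a signal of 638 and rank 16, with a signal of 366 in replicate 1 and 273 in replicate 2 and ranks of 19 and 16. Its summit lay 63 bp upstream of the RNA gene, which is not inside a protein-coding gene. The peak at C51F7.4 on chromosome V (12303473 to 12303814) had a signal of 631 and rank 17. It ranked 17 in replicate 1 and 28 in replicate 2. The summit was inside C51F7.4, at position 38 from its 5′ end, and also at position -71 from that of the neighbouring snoRNA gene C51F7.3 (negative positions are upstream), which has the tRNA-like pair. Both snoRNA genes lie within frm-7, a FERM domain protein gene, on its strand.

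Other snoRNA genes among the strongest were T03F7.8 (signal 572, rank 26), ZK265.10 (539, rank 30), F59C6.15 (531, rank 31) and Y43F8C.22 (503, rank 38). Their peaks ranked 24 and 32, 22 and 55, 32 and 36, and 29 and 64 in replicates 1 and 2. ZK994.7, T06C12.16 and ZK20.9 followed, with signals of 460, 457 and 391. The annotation names these snoRNA genes only by clone and gives no target for them. Of the 20 strongest peaks, 16 were at snoRNA genes by nearest gene and 4 at snRNA genes, namely sls-2.4, sls-2.1, W05B2.8 and sls-2.2. The tRNA-like pair stood upstream of the nearest gene at 8 of the 20 and the snRNA-type pair at 3.

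Counted by gene, optimal peaks were found at a larger share of snoRNA and snRNA genes than of protein-coding 5′ ends. An optimal summit lay within 250 bp of 79 of 346 snoRNA genes (22.8%, 18.5 to 27.6) and 17 of 129 snRNA genes (13.2%, 7.87 to 20.3), whereas it lay within 250 bp of 5.08% of protein-coding genes' 5′ ends, 1014 of 19973. The intervals of snoRNA and snRNA genes overlap. A summit near neighbouring RNA genes counted for each of them, as at C51F7.4 and C51F7.3 and at sup-39 and mir-1831, so these genes are not independent. In the 3053 strongest rows of each replicate alone, the share of snoRNA genes was 23.7% in both replicates and that of snRNA genes was 12.4% in both. For other RNA classes, the share was 30.2% of 612 tRNA genes, 10.4% of 7764 ncRNA genes, 7.66% of 261 miRNA genes and 0.358% of 15363 piRNA genes. The classes differ in length and in distance to promoters, and no test of the difference was made. Genes over 1 kb from a protein-coding 5′ end gave 40 of 193 snoRNA genes (20.7%, 15.2 to 27.1) and 5 of 68 snRNA genes (7.35%, 2.43 to 16.3). For snRNA genes the share was lower there than over all 129, but the intervals overlap. The part of nearness to protein-coding promoters was not tested.

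**Figure D3:**
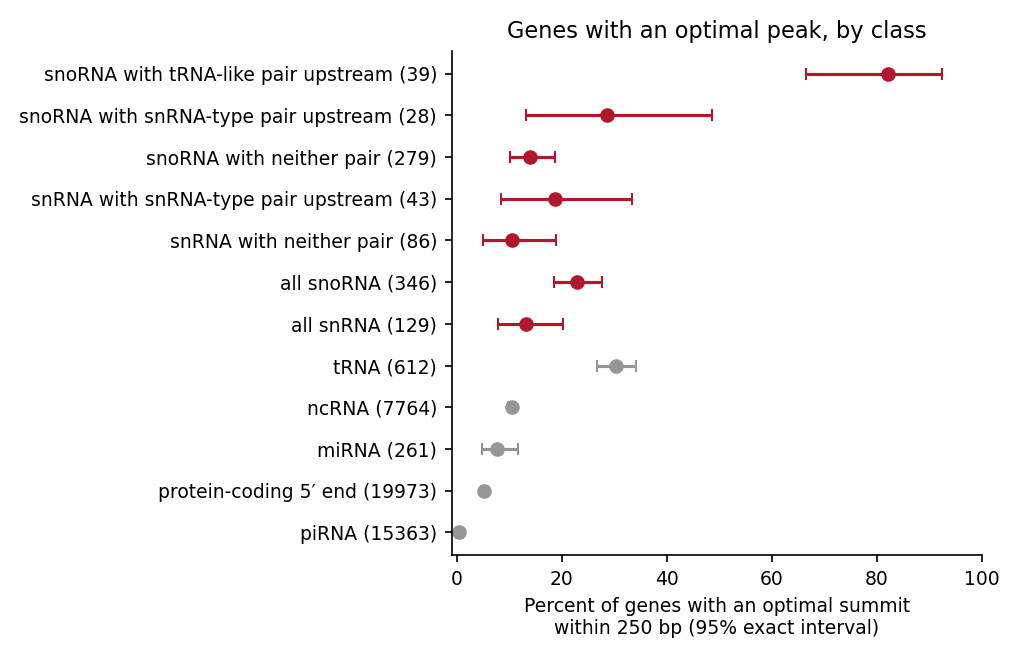
Percent of genes with an optimal summit within 250 bp, by class, with 95% exact intervals that cover counting error only and the number of genes in brackets. snoRNA genes with the tRNA-like pair stand at 82.1%, all snoRNA genes at 22.8% and protein-coding 5′ ends at 5.08%.

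The snoRNA genes with the tRNA-like pair upstream had the highest share of genes with an optimal peak among the groups by word pair. Of 39 such genes, 32 had an optimal summit within 250 bp (82.1%, 66.5 to 92.5), with signals from 107 to 638 and a median of 275. The count was also 32 in the strongest 3053 rows of each replicate, though not all of the genes were the same. Of the 28 snoRNA genes with the snRNA-type pair 8 had one (28.6%, 13.2 to 48.7), and of the 279 with neither pair 39 had one (14.0%, 10.1 to 18.6). No snoRNA gene had both pairs. Each pair had to match its exact letters, and some genes counted with neither hold close variants of these words. The interval for the tRNA-like pair lies above the other intervals, but the pair had been chosen on these peaks. Among the 23 genes with the tRNA-like pair that lie over 1 kb from a protein-coding 5′ end, 19 had an optimal summit.

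Of the 7 genes with the tRNA-like pair and no optimal summit, D1054.17, T23B12.13, Y59E1B.14, R166.7, F19H8.6 and Y6B3B.15 had no pooled summit within 250 bp either. K09E9.5 had a pooled peak with a signal of 77.9, below the lowest optimal signal of 81.6. No tRNA gene lay within 500 bp of any of the 39 genes, and the nearest was 1106 bp away. An annotated pseudogene overlapped the searched stretch at 3 of them, F19H8.6, Y59E1B.14 and T08B2.13, and the last of these had an optimal peak with a signal of 234.9.

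In stretches of the same length, the tRNA-like pair stood at 39 of 346 snoRNA genes (11.3%) and 0 of 129 snRNA genes, whereas it stood at 5 of 261 miRNA genes (1.92%) and at 35 of 29773 distinct transcript 5′ ends of protein-coding genes (0.118%). Within the gene bodies of tRNAs it was found in 347 of 612 (56.7%). The snRNA-type pair stood at 43 of 129 snRNA genes (33.3%) and 28 of 346 snoRNA genes (8.09%), whereas it stood at 1.15% of miRNA genes and 0.158% of protein-coding 5′ ends. Shorter snoRNA genes carried optimal peaks more often than longer ones. The share was 34 of 95 (35.8%, 26.2 to 46.3) for genes of up to 100 bases, and 45 of 251 (17.9%, 13.4 to 23.2) for longer genes. With the tRNA-like pair it was 20 of 22 for the shorter genes and 12 of 17 for the longer ones. The pair itself stood at 22 of the 95 shorter genes and at 17 of the 251 longer ones. The part of length apart from the pair was not tested.

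Most peaks sat in front of the RNA genes. Summits of optimal peaks lay upstream of the 5′ end in 78 of 99 cases (78.8%, 69.4 to 86.4), inside the gene in 14 and downstream in 7. Over all 218 peaks, 140 lay upstream (64.2%, 57.5 to 70.6). The median position of optimal summits from the 5′ end was -40 bp, with quartiles of -55 and -11 bp. For the 119 peaks outside the optimal set the median was -8 bp, with wider quartiles of -65.5 and 142 bp. At snoRNA genes 70 of 80 optimal summits lay upstream (87.5%), whereas at snRNA genes 8 of 19 did (42.1%, 20.3 to 66.5). The 19 include a second, weaker summit at sls-2.1, W05B2.8, F38E11.10 and C52E4.8, at positions 158, 215, 121 and 163. The 80 include one at C26C6.13 and M7.15, at positions -17 and 38. These shares and the interval thus count summits and not genes, and the second summits lower the snRNA share. The stretch of 80 bp before the 5′ end held 64 of the 99 optimal summits and 37 of the other 119.

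**Figure D4:**
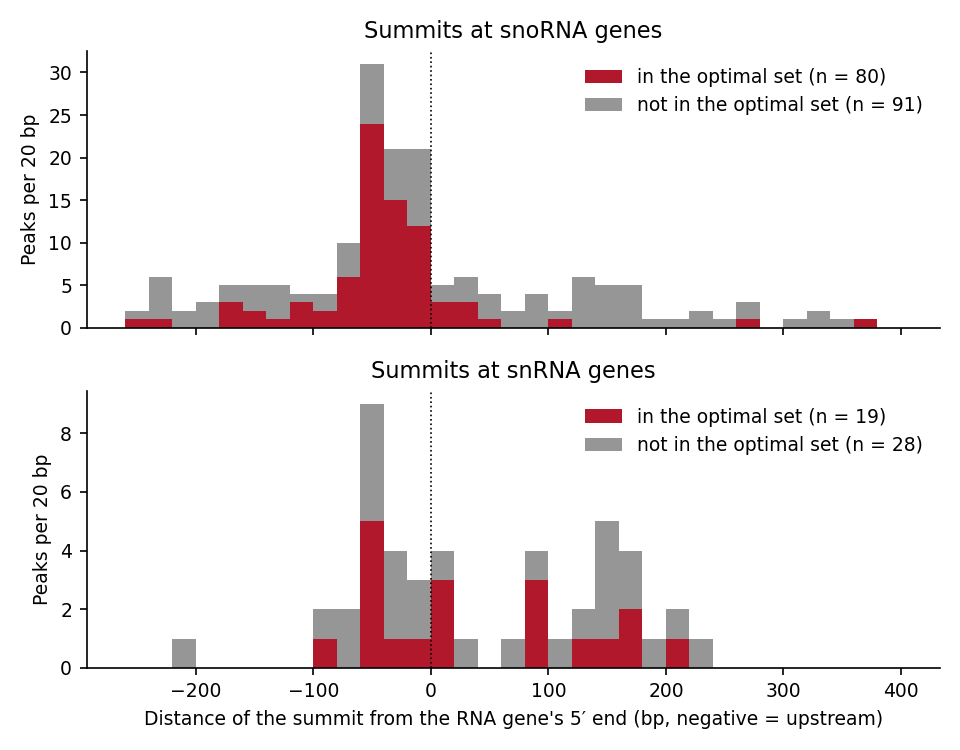
Distance of each summit from the 5′ end of the nearest RNA gene, in bins of 20 bp, for snoRNA genes (top) and snRNA genes (bottom), with optimal peaks in red and other peaks in grey stacked on them. At snoRNA genes 70 of the 80 optimal summits lie upstream, most within 80 bp, and at snRNA genes 8 of 19 do. Genes with a pair of optimal peaks enter with both summits.

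At the genes with the tRNA-like pair most summits lay within the span of the pair. All 32 genes with an optimal peak had an optimal summit within the searched stretch, at positions from -80 to 13 bp. The strongest such summit lay between the start of the first word and the end of the second at 26 of the 32 genes, before the first word at 1 (C17D12.8) and after the second at 5. The first word began at a median position of -59 and the second at -14, with a spacing of 36 to 55 bases. Much the same stretch held the optimal summits at snoRNA genes with or without the pair. Their median position was -42.5 bp, with quartiles of -58.25 and -17 bp (80 summits). The snRNA-type pair kept a tighter place at snRNA genes. Its first word began at a median position of -57, with quartiles of -58 and -56.5, and at snoRNA genes the median was -59. Of the 7 snRNA genes and 8 snoRNA genes with that pair whose strongest peak was optimal, the median summit lay at -7 and -26.5 bp.

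**Figure D5:**
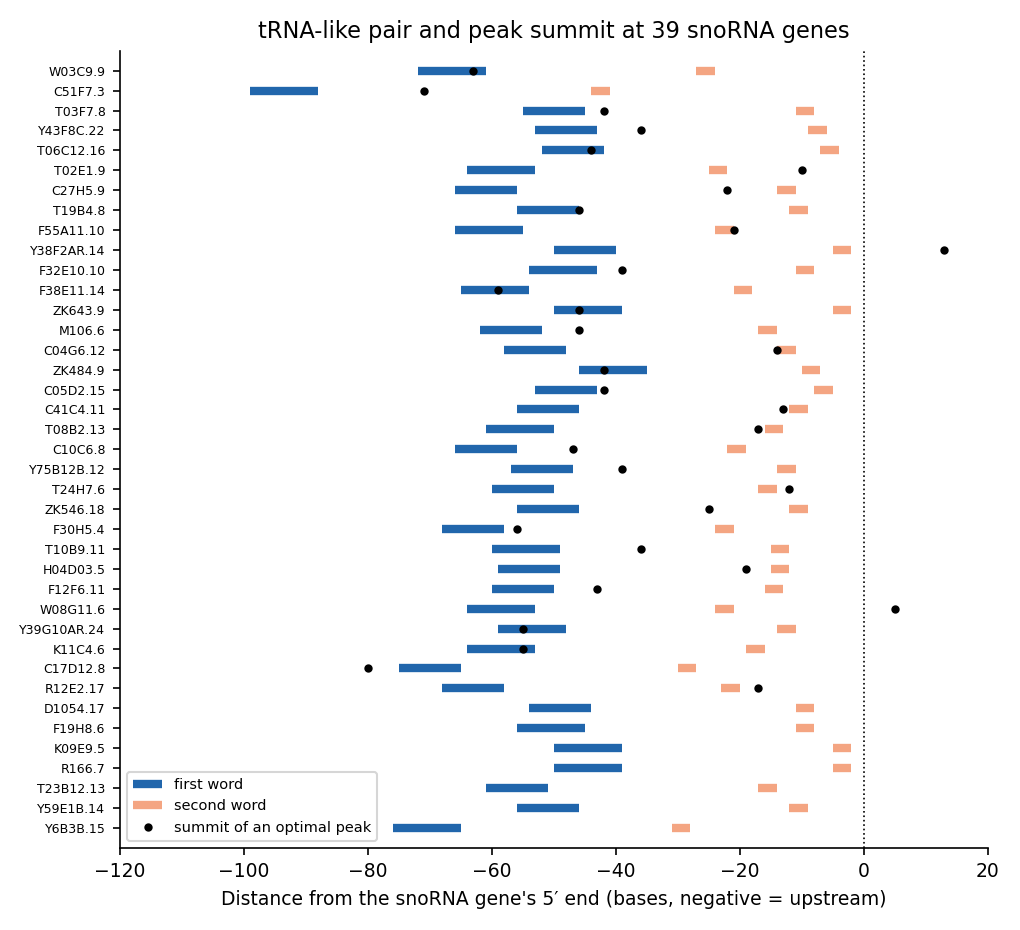
Position of the first word, the second word and the strongest optimal summit at each of the 39 snoRNA genes with the tRNA-like pair, in bases from the 5′ end, in order of signal from the top. The 7 genes at the bottom have no optimal summit, and 26 of the 32 summits lie from the start of the first word to the end of the second.

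The snRNA genes were also counted by kind. Over all 129 of them, 17 had an optimal summit within 250 bp (13.2%, 7.87 to 20.3). The groups are small, and differences between them were not tested. They were grouped by sequence, at 80% identity over the longer gene, and the groups are called by a member. The group of 13 genes that holds sup-6 and sup-39, known as U1 snRNA genes from suppressor mutations, had 3 genes with an optimal summit. The summit at sup-6 had a signal of 210 (rank 536) and lay at position 4 from its 5′ end, and that at sup-39 had a signal of 134 (rank 1350) and lay at position 5, within 250 bp also of mir-1831, an entry of 22 bases that the annotation counts as snRNA. The group of 24 genes with W05B2.8 had 4 genes with an optimal summit. W05B2.8 itself had the strongest, with a signal of 342 and rank 127, in an intron of dhc-4, a dynein heavy chain gene. The group of 12 genes with F38E11.10 had 2, with signals of up to 239. The group of 19 genes with F08G2.10 had 1, at 95.1, and the group of 5 genes with C52E4.8 had 1, at 157. Near-identical copies can share reads, and how the submitters treated such reads is not given in the sources used here.

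Spliced leader genes divided by family. Of the 18 genes named sls-2, which encode SL2-type spliced leader RNAs, 10 had a pooled summit within 250 bp and 5 had an optimal one. sls-2.4 had the strongest peak of any snRNA gene, with a signal of 378 and rank 88, and signals of 209.6 and 164 in replicates 1 and 2. sls-2.1 had signals of 356 and 212 at a pair of summits, and sls-2.2 and sls-2.8 had 326 and 144. The fifth, sls-2.9, had an optimal peak with a signal of 181 that was left out because a tRNA gene lay 22 bp from the summit. None of the 12 genes named sls-1, for the SL1 spliced leader, had a pooled summit, for which the exact upper limit of the share is 26.5%. None of the 10 snRNA genes named smy, for the SmY RNAs, had one either, with an upper limit of 30.8%. The genes smy-2 and smy-3, which the annotation calls snoRNA, each had a pooled peak outside the optimal set, with signals of 77.7 and 60.9. The sls-1 genes of C. elegans lie in repeated DNA, and the files do not say whether reads from repeats were kept.

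Hosts of the RNA genes were mixed. Of the 218 peaks, 117 (53.7%, 46.8 to 60.4) were at RNA genes inside a protein-coding gene, 99 in an intron and 18 overlapping an exon. Of the optimal peaks 45 of 99 were (45.5%), in 45 host genes. By gene, an optimal summit lay near 40 of 130 snoRNA genes outside hosts (30.8%, 23.0 to 39.5), 34 of 170 in introns (20%, 14.3 to 26.8) and 5 of 46 at exons (10.9%, 3.62 to 23.6). It lay near 10 of 33 snoRNA genes on the strand opposite to the host and 29 of 183 on the same strand.

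The strongest peaks at hosted genes, after that in frm-7, were at T03F7.8 in an intron of cutl-18, a cuticlin-like gene, on the opposite strand, and at Y43F8C.22 in an intron of Y43F8C.7. ZK994.7 followed in an intron of pxn-1, which encodes a peroxidasin, and its summit, at position 6 of the snoRNA gene, lay 5696 bp from the nearest protein-coding 5′ end. C27H5.9 in pdl-1 had a signal of 337, B0334.12 in the potassium channel gene twk-5 had 333, and F55A11.10 in F55A11.6 had 315. M106.6 in mix-1, a condensin subunit gene, had 290 with its summit 3356 bp from the nearest protein-coding 5′ end. C04G6.12 in mpk-2, a MAP kinase gene, had 290, C10C6.8 in catp-8, a cation-transporting ATPase gene, had 232, and H04D03.5 in smrd-1 had 175. Of the 23 snoRNA genes in ribosomal protein genes 1 had an optimal summit within 250 bp, F54E7.10 in rps-12, with a signal of 303. That summit lay 247 bp upstream of the snoRNA gene and 126 bp from the 5′ end of ska-3.

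Over the 218 peaks, the share near protein-coding promoters was within counting error of that of other peaks. This did not hold for each kind of RNA gene. Of the 218 summits, 109 lay within 1 kb of a protein-coding 5′ end (50%, 43.2 to 56.8), and 46.6% of all nuclear pooled summits did. The share was 45.6% for the 171 peaks at snoRNA genes (38.0 to 53.4). It was 66.0% for the 47 at snRNA genes (50.7 to 79.1), an interval above 46.6%. For optimal peaks the shares were 53.5% at snoRNA and snRNA genes (43.2 to 63.6) and 61.3% over the nuclear optimal set (59.6 to 63.1). By kind, the share of optimal peaks was 48.75% at snoRNA genes (37.4 to 60.2) and 73.7% at snRNA genes (48.8 to 90.9). The 109 peaks farther than 1 kb had 46 in the optimal set (42.2%, 32.8 to 52.0).

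Words known from other promoters were counted from 50 bases before to 50 bases after each summit, on both strands. GGTGTGA, the core of the site that T-box proteins bind, was in 2 of the 218 windows (0.917%, 0.111 to 3.27) and in 1.35% of all nuclear pooled windows. It was in 0 of the 99 optimal windows, for which the exact upper limit is 3.66%, and in 1.32% of the nuclear optimal windows. GAGAGA was in 14.1% of the optimal windows at these genes (7.95 to 22.6) and in 31.0% of all nuclear optimal windows. CTGCGTCT was in 5.05% and 10.3% of the same sets. GGTTCGA, the core of the B box of tRNA genes, was in 10.1% and 2.97%, and it overlaps the GTTC of the tRNA-like pair. TATAAA was in 8.08% and 3.20%, and GGGCGG in 8.08% and 7.81%. The tRNA-like pair, on either strand, was in 29.3% of the optimal windows at these genes (20.6 to 39.3), 1.68% of the other windows at these genes and 2.64% of all nuclear optimal windows. In the 2755 nuclear optimal windows away from both these genes and tRNA genes it was in 0.508%.

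At 29 RNA genes a pair of peak rows shared the gene. Their summits were a median of 203 bp apart, and 199 bp at the least. Both rows were optimal at 6 of these genes, 1 row at 15 and neither at 8, and the stronger row lay upstream of the gene at 21. At D1046.6 the row with its summit 45 bp upstream had a signal of 256 and the row 157 bp downstream of the 5′ end had 38.2. At C26C6.13 both were strong, with signals of 234.8 at 228 bp upstream and 179 at 17 bp upstream. Such rows are not independent of each other.

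By chromosome, the X had 15 of the 218 peaks and 3 of the 99 optimal ones, at 36 RNA genes, whereas chromosome II had 45 and 25 at 87 RNA genes. Of the 33 snoRNA genes on the X, 3 had an optimal summit (9.09%, 1.92 to 24.3), whereas the other chromosomes had from 18.5% to 29.1%. The interval for the X overlaps those of the others. At the limits of the rule, the peaks just inside 250 bp were at F54E7.10 (247 bp, signal 303) and D2021.6 (249 bp, 28.9), and those just outside were near F37F2.4 (252 bp, 109) and K02F3.15 (255 bp, 321). The rule on tRNA genes removed 2 peaks, at sls-2.9 and C16D9.10.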

How the data were processed

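Peaks were called by the submitters on each replicate and on the pooled data, with a control library, and the optimal set is labelled as thresholded on irreproducibility, per the labels and the deposited file list. Which aligner and caller were used, and with what thresholds, is not given in the sources used here. Lists on ce11 were used. Each gives, as deposited, a signal score per peak on the caller's own scale. The deposited -log10 q-values, which the authors' caller gives per peak, were not used, and no test was made.

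Summits were placed against the Ensembl 115 annotation of WBcel235 (346 snoRNA, 129 snRNA and 612 tRNA genes), with symbols from RefSeq for all 475 snoRNA and snRNA genes by WormBase identifier. A row was called optimal when interval and summit matched, and overlap with replicate rows needed 1 bp. Shares carry 95% Clopper-Pearson intervals. Sequences came from RefSeq's WBcel235 genome. The steps recovered planted distances, overlaps and word pairs in simulated data. The members, gene groups and words were chosen with earlier results of these data known. Genes named are those nearest to the 20 strongest peaks, the strongest of each snRNA group, hosted genes with optimal peaks, genes with a pair of peaks and those at the limits of the rule; genes with the tRNA-like pair, the smy and sls-1 families and peaks found in neither replicate list were named after their values were seen. Python 3.11.15, pandas 2.3.3, SciPy 1.17.1 and Biopython 1.88 were used.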

Additional observations from a re-analysis of the deposited data

How the results depend on the processing

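The results were recomputed with other windows, overlap rules and peak sets; of the alternatives, 31 stayed within the interval, spread or 1.5-fold limit of the value reported and 10 moved beyond it. With summits within 100 or 500 bp the peaks numbered 176 and 287, of which 48.3% and 39.7% were optimal. The share of snoRNA genes fell to 18.2% in the 1526 strongest optimal rows, a shorter list by construction. The share of snRNA genes was 7.35% without genes within 1 kb of a protein-coding 5′ end. Leaving out either replicate gave 23.7% of snoRNA genes and 12.4% of snRNA genes. The median rank percentile was 84.3 without peaks within 1 kb of such an end. With optimal peaks only, 78.8% of summits lay upstream and 45.5% of peaks were at hosted genes. Counting all rows of a replicate list in place of its strongest raised the share found to 89.4%. Windows of 100 bases to each side, which hold more sequence, contained GAGAGA in 22.9%, GGGCGG in 11.0%, TATAAA in 18.3% and the snRNA-type pair in 15.1% of the peaks. Other definitions of the tRNA-like pair, added after the data were seen, left 78.0% to 84.4% of snoRNA genes holding it with an optimal summit. No paired analysis was possible because there is 1 group. Read depth is unknown, so no limit of detection can be given for weak peaks.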

Other observations

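The tRNA-like pair was within 50 bases of the summit at 80 nuclear optimal peaks. Of these, 29 were at snoRNA or snRNA genes, 37 had a tRNA gene within 500 bp, and 14 had neither near. The strongest of the 14 had a signal of 445 and rank 57 on chromosome IV (11025992 to 11026394, ce11), with its summit within 250 bp of the microRNA gene mir-51, and hrg-5 as the nearest protein-coding gene. The next, with a signal of 305 and rank 181, lay on chromosome IV (1687230 to 1687418), 5120 bp from the 5′ end of Y41D4B.24, with no annotated noncoding gene within 250 bp. The peaks that followed, with the 5′ ends of C07A9.9, D2096.7, tba-7 and ZK816.3 as the nearest protein-coding ones, had signals of 246, 234, 222 and 171. Those by tba-7 and ZK816.3 also had ncRNA genes within 250 bp of the summit. The 14 peaks were picked by the word pair after the data were seen, and no test was made on them.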
